A study of Rattus norvegicus with 64 samples.

Results

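The liver of Sprague Dawley rats, an outbred laboratory strain, was compared 5 h after a single dose of 2 g/kg acetaminophen or after the vehicle alone, 6 ml/kg of 50% polyethylene glycol. The comparison holds 16 of the 64 libraries of the series, 8 from acetaminophen livers and 8 from vehicle livers, chosen by their tissue, time and agent labels. Each library is the liver of a separate rat, and a rat is the unit of replication. The study also sampled livers 10 h after the same treatments, and kidneys at both times, with 32 rats in all. The sex and age of the rats are not given in the sources used here. Messenger RNA was measured as kallisto's estimated count of reads per transcript, and a level below is that count per 1000000 reads (CPM) after TMM scaling, a correction for the makeup of each library. Because CPM counts reads, a long transcript has a higher CPM than a short one at the same number of molecules.

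Acetaminophen is an analgesic that is cleared mostly by conjugation in hepatocytes. In overdose, cytochrome P450 enzymes turn part of it into a reactive quinone imine that uses up glutathione and binds proteins of the hepatocyte, above all in mitochondria, and the damage is largest around the central veins, where those enzymes are most abundant. Rats are known to be less sensitive to this injury than mice. In whole liver RNA, fewer cells of a type and less RNA per cell cannot be told apart. No gene symbol was matched to any of the deposited transcript identifiers, so pathways and cell types are not described, and the results below are those of transcripts by their level, their change and their behaviour in each liver.

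Several features of the libraries touch the results. All 16 libraries correlated more closely with the other liver libraries (lowest mean r 0.955) than with kidney libraries (highest mean r 0.839). Totals ran from 21467448 to 29496773 estimated counts. Totals, the number of transcripts with a count, the share of the 10 most abundant transcripts and the slope of a library on transcript length gave no call between the groups (exact permutation tests, two-sided, n = 8 each; adjusted p = 0.925 for each of the 4). Libraries numbered 29, 30 and 32 in the titles, which are acetaminophen replicate 6, vehicle replicate 6 and acetaminophen replicate 7, stood apart. A slope here is that of log2 CPM, less its mean over the 32 liver libraries, on log2 length. The slopes of these libraries were -0.087, -0.13 and -0.097, so long transcripts were low in them relative to the liver mean. The other 13 livers lay between -0.018 and 0.062. A 10 h acetaminophen liver, library 28, had a slope of -0.20. Library 30, labelled vehicle replicate 6, lay farthest out. It had the fewest transcripts with a count in its group, 17211, and its 10 most abundant transcripts took 28.3% of its counts, against 21.6% to 24.5% in the other vehicle livers.

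Acetaminophen changed the level of 2079 of 14943 transcripts tested in the liver at 5 h, 13.9% of them (edgeR's quasi-likelihood test on all 32 liver libraries, Benjamini-Hochberg adjusted p under 0.05). Of these, 1102 rose (7.37% of those tested) and 977 fell (6.54%). Of the called transcripts, 812, 39.1%, changed by less than 0.5 on the log2 scale. Changes of 2 or more on that scale were made by 52 transcripts that rose and 25 that fell, or by 39 and 14 among transcripts with a mean of at least 1 CPM. A further 404 transcripts had a fitted log2 change of at least 1 and were not called, and 341 of these lay under 3 CPM. The numbers of rises and falls were close as scaled here, but how close they were and which was larger depended on the scaling. TMM scales all libraries to 1 reference library, here library 28, the one with the steepest slope on length. With each of the 32 liver libraries as the reference in turn, 860 to 1102 transcripts rose and 976 to 1225 fell, and rises outnumbered falls with 6 of the 32. On DESeq2 size factors 900 rose and 1161 fell, and on library totals alone 575 rose and 1250 fell. The median log2 change of all transcripts was 0.027 as scaled here, -0.010 on DESeq2 size factors and -0.045 on library totals.

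**Figure D1:**
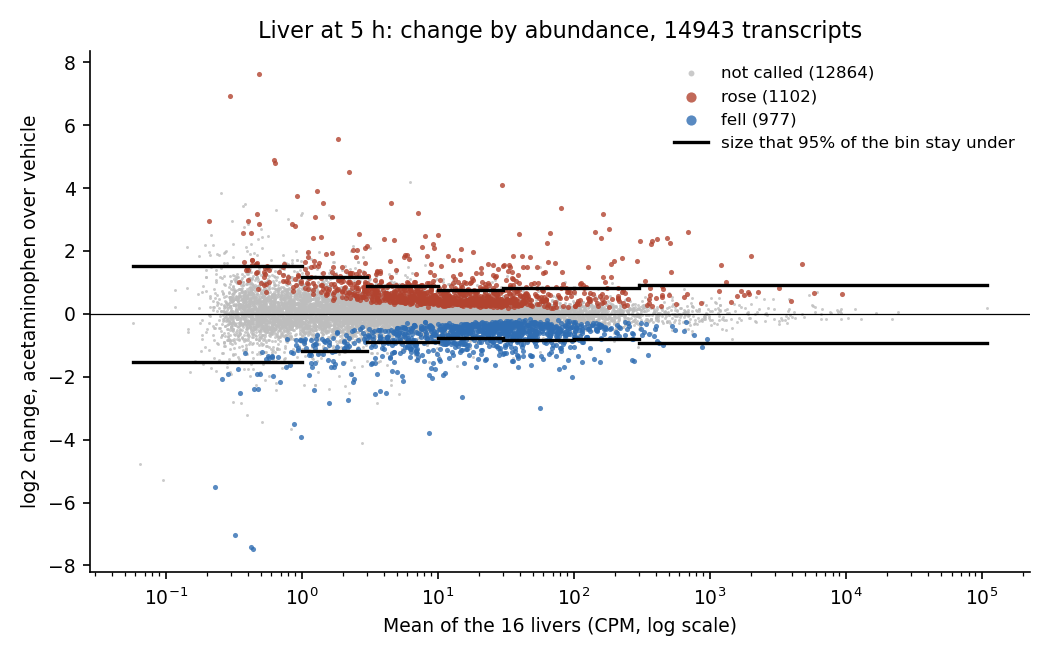
Log2 change between acetaminophen and vehicle livers at 5 h (vertical axis) against the mean of the 16 livers in CPM (horizontal log axis), 1 point per transcript, coloured by its edgeR call. The black lines mark, in each abundance bin, the size that 95% of the transcripts stayed under, which narrowed from 1.53 under 1 CPM to 0.77 at 10 to 30 CPM and was 0.91 at 300 CPM and over.

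Rare transcripts had wide and imprecise changes, and abundant ones were called far more often. The 2352 transcripts with a mean under 1 CPM had a median size of the log2 change of 0.37 with a median standard error of 0.43, and 90 of them, 3.83%, were called. The 3475 transcripts at 10 to 30 CPM had a median size of 0.19 with a standard error of 0.13, and 18.3% were called. At 30 to 100 CPM the share was largest, 22.1% of 2139 transcripts, and it was 16.8% of the 369 transcripts at 300 CPM and over. The standard error stopped falling at 30 to 100 CPM, where it was 0.12, and was 0.15 at 300 CPM and over. What a call means in size therefore varied with the level. The smallest called change was 0.70 on the log2 scale under 1 CPM and 0.17 at 30 to 100 CPM, and the median size of a called change went from 1.40 to 0.52 between these bins.

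The share of the calls that rose varied with abundance. At 3 to 10 CPM 309 transcripts rose and 178 fell, at 10 to 30 CPM 342 rose and 293 fell, and at 30 to 100 CPM 171 rose and 302 fell. At 100 to 300 CPM 58 rose and 82 fell. Among the 369 most abundant transcripts 42 rose and 20 fell. Whether rises or falls led outside 30 to 300 CPM depended on the scaling. On library totals falls led in every bin, with 154 rises and 209 falls at 3 to 10 CPM, 140 and 366 at 10 to 30 CPM, and 25 and 37 at 300 CPM and over. On DESeq2 size factors rises led at 3 to 10 CPM, 255 against 211, and at 300 CPM and over, 36 against 25, but not at 10 to 30 CPM, 260 against 350. More falls than rises at 30 to 100 CPM were found under each of 31 settings of scaling, filter, test and libraries, and the share of rises was higher at 3 to 10 CPM than at 30 to 100 CPM under each of the 31. There were more falls at 30 to 300 CPM with each of the 32 references for TMM. A bin made from the livers compared holds some transcripts because they rose or fell. With bins taken from the 8 vehicle livers at 10 h instead, 141 rose and 301 fell at 30 to 100 CPM, while at 300 CPM and over the counts were nearly level, 34 against 28. Transcript length moved little with the direction of the change. Spearman's rho between length and log2 change was 0.0071 across 14943 transcripts, which are not independent replicates. Called transcripts were longer: the median length was 1994 bases over all transcripts tested, 2300 over those that rose and 2329 over those that fell. Under 500 bases 3.68% rose and 1.62% fell, at a median of 2.34 CPM. At 4000 bases and over 8.33% rose and 7.80% fell, at a median of 12.1 CPM.

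**Figure D2:**
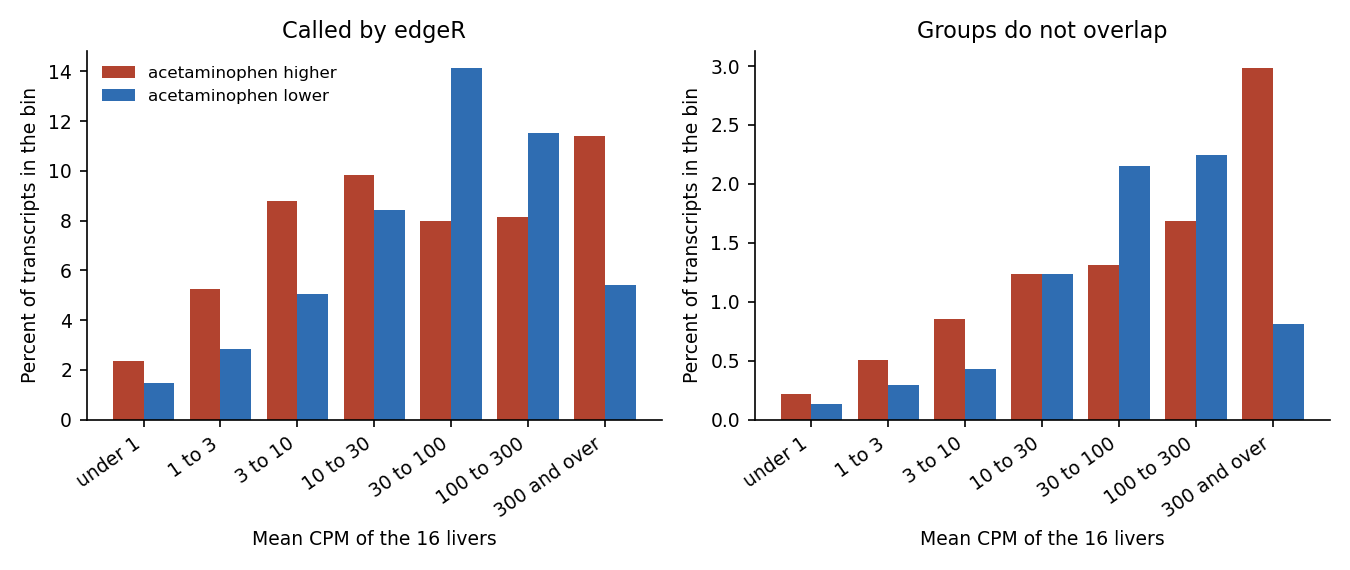
Percent of the transcripts in each bin of mean CPM that edgeR called (left) and whose groups did not overlap (right), with red bars for acetaminophen higher and blue bars for acetaminophen lower. The blue bars exceed the red ones at 30 to 100 and 100 to 300 CPM in both panels.

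The treated livers differed from each other in how far they had moved. For each liver, the calls were taken from a fit that left it out, and its median difference from the vehicle mean was taken over the transcripts called. Over the transcripts that rose, the 8 acetaminophen livers had medians of 0.32 at the lowest, 0.45 in the middle and 0.78 at the highest on the log2 CPM scale, and the vehicle livers, treated the same way, -0.054, 0.094 and 0.15. Over those that fell, the acetaminophen livers had -0.86, -0.49 and -0.34, and the vehicle livers -0.27, -0.056 and 0.062. The groups did not overlap in either measure. The vehicle livers that formed the mean also helped to pick the transcripts, so the medians lean in the direction of the call. The lists were called between these same groups, so the lack of overlap is no independent test. Replicate 3 had moved farthest in both directions, at 0.78 and -0.86, followed by replicate 8 at 0.59 and -0.77. Replicate 6 had moved least, at 0.32 and -0.34. Each liver had its own list of calls. Replicate 3 had 799 rises and 780 falls, replicate 8 had 918 and 829, and replicate 6 had 1132 and 1059. The treated livers that moved farthest thus had the shortest lists, and the medians are not over a common set of transcripts. The part of the lists in this ranking was not tested. In replicate 3, 97.5% of the rises lay above the vehicle mean, and in replicate 6, one of the livers with low long transcripts, 77.8% did. The library labelled vehicle replicate 6 had the lowest vehicle value over the falls, -0.27, and stood at 0 over the rises.

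Few of the called transcripts had moved out of the vehicle range in every treated liver. Of the 1102 transcripts that rose, 141 lay above the highest vehicle liver in all 8 acetaminophen livers, 184 in 7, 261 in 6, 243 in 5 and 137 in 4. Of the 977 that fell, 132 lay below the lowest vehicle liver in all 8, 155 in 7 and 188 in 6. A further 61 of the falls, and 9 of the rises, had no treated liver outside the vehicle range. Without vehicle replicate 6 in that range, 14 of the falls and 3 of the rises had none outside it.

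With all 16 livers, the spread between treated livers did not exceed that between vehicle livers past the test's threshold. It did so when vehicle replicate 6 was left out. That liver was the farthest on this same measure, and leaving it out of the vehicle group alone lowers the spread of that group. The values without it are therefore no test of a larger spread in treated livers. The distance of a liver from the mean of the other livers of its group, as a root mean square over 12591 transcripts of at least 1 CPM on the log2 scale, was 0.691 ± 0.087 in acetaminophen and 0.638 ± 0.170 in vehicle livers (SD, n = 8 each; exact permutation p = 0.473, two-sided). The acetaminophen livers ran from 0.606 to 0.867 and the vehicle livers from 0.518 to 1.03, and the top of each group was replicate 6. Without vehicle replicate 6, the vehicle livers had 0.573 ± 0.074 (SD, n = 7) and the difference was 0.118 (exact permutation p = 0.0131, two-sided). Without acetaminophen replicates 6 and 7 as well, it was 0.077 (exact permutation p = 0.0659, two-sided, n = 6 and 7). The distances within a group depend on each other and were not recomputed on relabeling, so these p-values are approximate. The part of the slope on length in this spread was not tested. Per transcript, the standard deviation was larger in acetaminophen livers for 51.2% of the 12591, for 69.6% without vehicle replicate 6, and for 58.2% without acetaminophen replicates 6 and 7 as well.

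**Figure D3:**
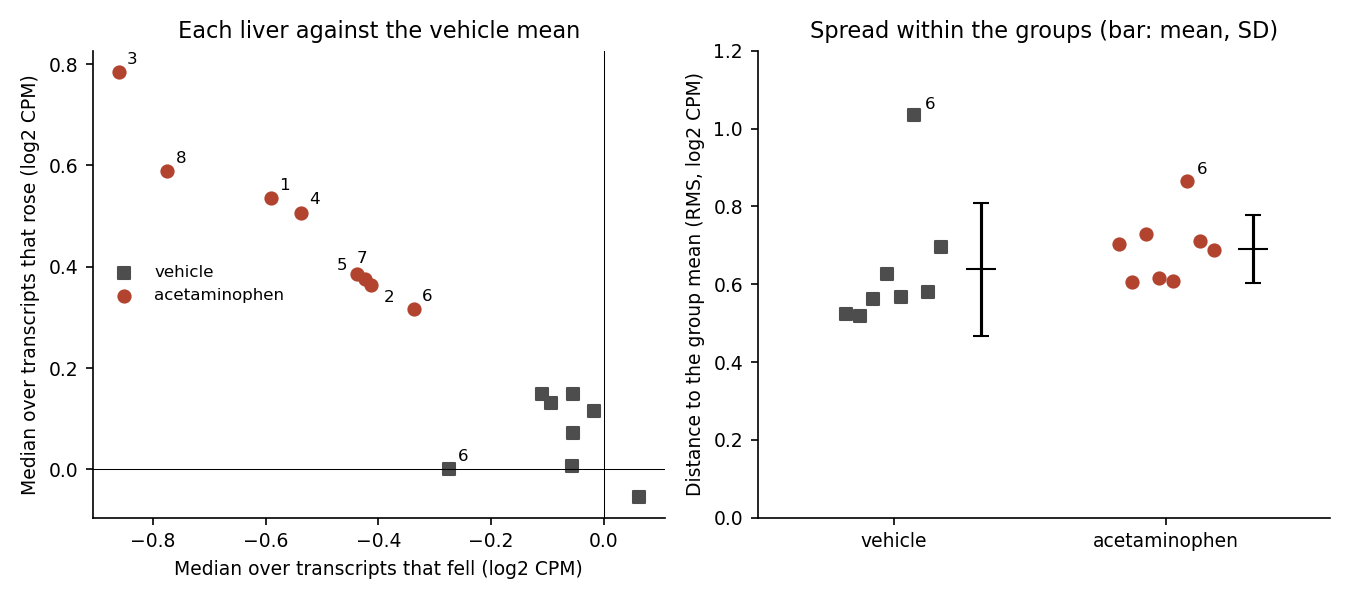
Left, the median difference of each liver from the vehicle mean over the transcripts that fell (horizontal) and rose (vertical), in log2 CPM, with calls from a fit without that liver; numbers are replicates. Right, the distance of each liver from the mean of the other livers of its group, with the mean and SD of the group beside the points; vehicle replicate 6 is the farthest of the 16 at 1.03.

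Which transcripts carried the spread also varied with abundance. Without vehicle replicate 6, the acetaminophen livers had the larger standard deviation for 62.2% of the transcripts under 1 CPM, for 72.8% at 10 to 30 CPM and for 50.4% at 300 CPM and over. With all 16 livers, the share fell from 54.8% under 1 CPM to 28.5% at 300 CPM and over. The median standard deviation at 300 CPM and over was 0.24 in acetaminophen livers, 0.35 in the 8 vehicle livers and 0.22 in the 7 without replicate 6. In the vehicle group, 1 liver thus held much of the spread of the most abundant transcripts. Among 6696 transcripts of at least 10 CPM, 409 differed by 2 or more on the log2 scale between the lowest and the highest acetaminophen liver, 450 did so between vehicle livers, and 247 between the 7 vehicle livers without replicate 6. Without acetaminophen replicates 6 and 7, 246 did so between the other 6 acetaminophen livers.

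The groups did not overlap at all for 274 transcripts, 1.83% of those tested. In 141 (0.944%) the lowest acetaminophen liver lay above the highest vehicle liver, and in 133 (0.89%) the highest acetaminophen liver lay below the lowest vehicle liver. edgeR called 273 of these; the other, at a mean of 6.8 CPM, had a log2 change of -1.19 (edgeR adjusted p = 0.0564). Separation did not need a large change. The 141 had a median log2 change of 0.70, with the smallest at 0.26, and 41 of them changed by less than 0.5. The 133 had a median of -0.81, and 29 of them changed by less than 0.5 in size. Changes of 1 or more in size were made by 48 of the 141 and 38 of the 133, and by 165 of the 961 rises and 163 of the 845 falls that were called and not separated. The gaps were narrow: the lowest liver of the higher group exceeded the highest of the lower group by a median of 0.081 log2 units in the 141 and by 0.11 in the 133, and by at least 0.5 in 16 and 8 transcripts.

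Separated transcripts were rarest at low levels. Under 1 CPM 8 of 2352 transcripts were separated, and at 300 CPM and over 14 of 369. At 30 to 100 CPM 28 were higher and 46 lower with acetaminophen, and at 300 CPM and over 11 were higher and 3 lower. With bins from the 10 h vehicle livers the last counts were 5 and 4. The median length was 1999 bases for those higher with acetaminophen and 2625 bases for those lower. At 1000 to 2000 bases 62 were higher and 30 lower, and at 4000 bases and over 8 were higher and 27 lower. The part of the libraries' slopes on length in this was not tested. No transcript with 0 counts in all vehicle livers had counts in all acetaminophen livers, and none was switched the other way.

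Single livers decided many of the separations. Leaving out vehicle replicate 6 raised the counts to 206 higher and 248 lower, and leaving out acetaminophen replicate 6 to 197 and 194. For every other liver left out, 147 to 173 were higher and 137 to 160 lower. Without libraries 28, 29, 30 and 32 the counts were 438 and 423 from 6 acetaminophen and 7 vehicle livers. By construction, the counts cannot fall when a liver is left out. Acetaminophen replicate 6 was the treated liver nearest to the vehicle group in 31 of the 141 and 33 of the 133. Replicate 2 was nearest in 26 and 26, replicate 5 in 23 and 32, and replicate 3 in 8 and 0.

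The largest rise among the separated transcripts of at least 1 CPM was that of ENSRNOT00000034670, 2566 bases long. Its vehicle livers lay at 0, 0.057 and 0.243 CPM (lowest, median and highest), with 15 counts over all 8 and 0 counts in 3. Its acetaminophen livers lay at 0.325, 0.660 and 13.2 CPM. Replicate 3 had 303 counts, replicate 8 had 166 and replicate 1 had 148, while the other 5 had 8 to 17. The groups did not overlap, but the rise was large in the same 3 livers whose medians over their own lists of calls were largest. The log2 change was 5.55 ± 0.85 (SE; edgeR adjusted p = 3.9e-05), and this size rests on those 3 livers and on the few vehicle counts. On the authors' TPM the log2 change was 2.38 with 0.1 added and 0.82 with 1 added. The transcript reached the mean of 1 CPM that the naming rule asks for through the acetaminophen group, with means of 3.65 CPM there and 0.076 CPM in vehicle livers.

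ENSRNOT00000015336, 1864 bases long, was the most abundant of the separated transcripts that rose. Its vehicle livers had 758, 2386 and 3653 CPM (lowest, median and highest) and its acetaminophen livers 4742, 7398 and 10128. The lowest vehicle value belongs to replicate 8, far below the next, 1861 CPM, and all treated livers lay above all vehicle livers. Its log2 change was 1.58 with an SE of 0.25 (edgeR adjusted p = 6.7e-05). The livers highest for it, replicates 1 and 2 at 10128 and 8782 CPM, were not those highest for ENSRNOT00000034670, and replicate 3 had 5763 CPM.

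Among the separated transcripts of at least 1 CPM, ENSRNOT00000008535, 3333 bases long, fell the most. Its vehicle livers had 20.2, 112 and 140 CPM and its acetaminophen livers 7.64, 12.7 and 17.1. The 20.2 CPM belong to vehicle replicate 6, close to the treated range, and the other 7 vehicle livers had at least 80.4 CPM. The log2 change was -3.00 ± 0.29 (SE; edgeR adjusted p = 7.2e-08). ENSRNOT00000045162, 2545 bases long, was the most abundant of the separated transcripts that fell. It had 967, 1211 and 1526 CPM in vehicle and 572, 666 and 856 CPM in acetaminophen livers. The spread was alike in both groups, and the fall was small, a log2 change of -0.79 with an SE of 0.11 (edgeR adjusted p = 1.1e-05).

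**Figure D4:**
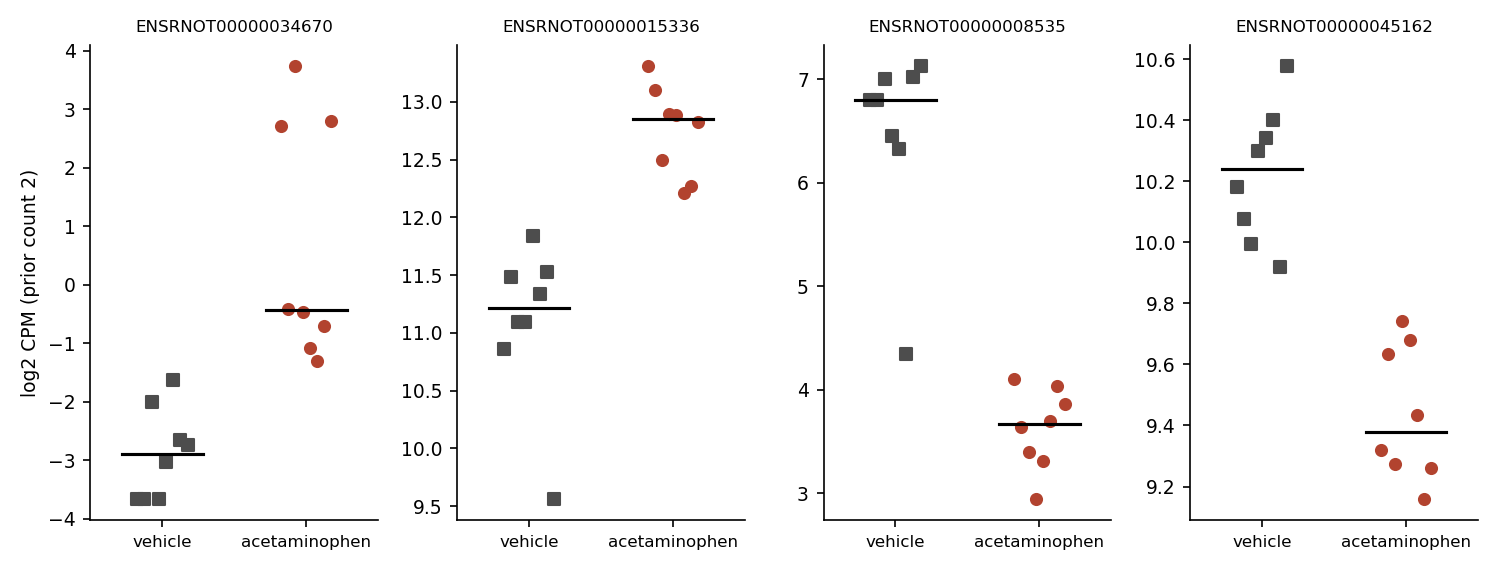
Level of the 4 named transcripts in each liver at 5 h, as log2 CPM with a prior count of 2, vehicle as squares and acetaminophen as circles, with the median of the group as a line; each panel has its own axis, which does not start at 0. The groups do not overlap in any panel, and 3 acetaminophen livers lie far above the other 5 for ENSRNOT00000034670.

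At 10 h other rats were used as controls and as treated animals, so the levels there are a separate measure of the same transcripts. There, 1455 of the 14943 transcripts rose (9.74%) and 909 fell (6.08%). Of the 141 transcripts separated upward at 5 h, 69 rose at 10 h, 48.9%, and 2 fell. Of the 133 separated downward, 56 fell, 42.1%, and 4 rose. Of the 5 h calls that were not separated, 264 of 961 rises, 27.5%, and 223 of 845 falls, 26.4%, had the same call at 10 h. The calls at both times come from the same fit, which shares its estimate of the spread. Separation favours a small spread at 5 h, so the higher shares of the separated transcripts are no independent test. The changes were mostly smaller at the later time. The median log2 change of the 141 went from 0.70 to 0.36 and that of the 133 from -0.81 to -0.27. These transcripts were chosen by their 5 h values, so a smaller median at 10 h is no test of a decline. The difference between the times was called for 829 transcripts overall (5.55%), for 36 of the 141, of which 35 had the smaller change at 10 h, and for 52 of the 133, of which 51 did. That test uses the 5 h values by which the 274 were chosen, so these counts are no result about them. Across the 6696 transcripts of at least 10 CPM, the log2 changes at both times had a Spearman's rho of 0.36, which describes these transcripts and not replicates.

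**Figure D5:**
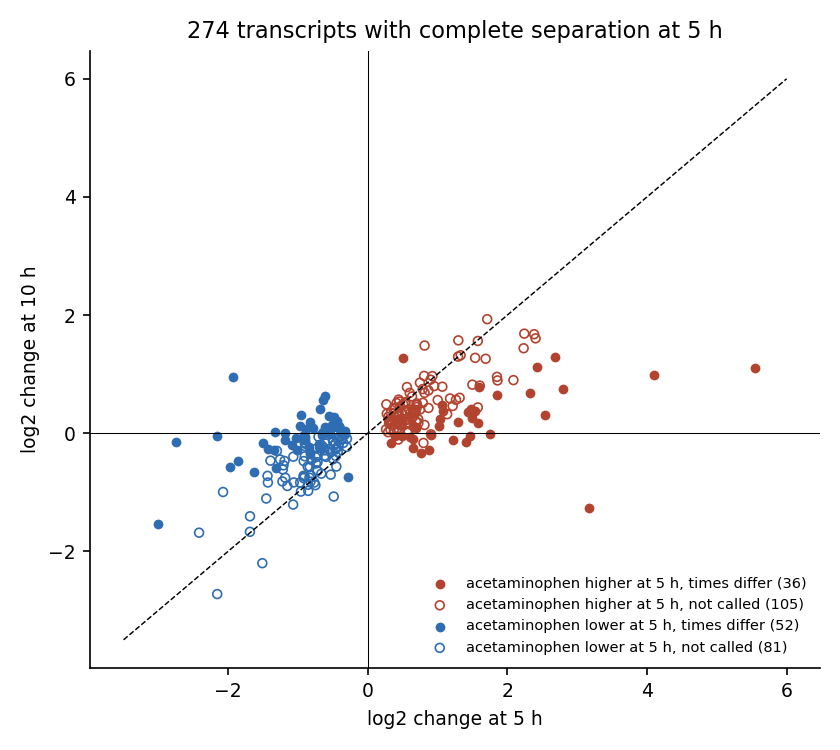
Log2 change at 10 h (vertical) against that at 5 h (horizontal) for the 274 transcripts whose groups did not overlap at 5 h, filled where edgeR called the difference between the times; the dashed line marks equal changes. Most filled points lie nearer to 0 on the vertical than on the horizontal axis.

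The 4 named transcripts had different values at 10 h. They too were chosen by their 5 h values, which enter each difference between the times or tissues, so the differences and their p-values below lean toward a smaller change at 10 h or in the kidney. ENSRNOT00000015336 was raised at 10 h as well, with a median of 1615 CPM in vehicle and 5470 CPM in acetaminophen livers, a log2 change of 1.56 (edgeR adjusted p = 5.2e-05). The difference between the times was -0.02 ± 0.35 on the log2 scale (SE). ENSRNOT00000045162 had medians of 911 and 927 CPM at 10 h, a log2 change of 0.08 (edgeR adjusted p = 0.68), and the difference from its fall at 5 h was called, at 0.87 (edgeR adjusted p = 9.2e-04). ENSRNOT00000008535 fell less at 10 h, from a median of 89.1 to 28.8 CPM, a log2 change of -1.54 (edgeR adjusted p = 2.2e-04) and a difference of 1.46 (edgeR adjusted p = 0.0218). ENSRNOT00000034670 had medians of 0.083 and 0.214 CPM at 10 h, a log2 change of 1.10 (edgeR adjusted p = 0.41) and a difference of -4.45 (edgeR adjusted p = 0.0218). Without the libraries numbered 65 to 68, which include 3 of these 5 h livers, both differences missed the threshold, with edgeR adjusted p = 0.067 and 0.058.

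In the kidney at 5 h few of the separated transcripts were called, but in the liver's direction more often than transcripts at large. Of 14432 transcripts tested in both tissues, 428 rose (2.97%) and 328 fell (2.27%) in the kidney. Of the 139 tested there among those separated upward in the liver, 15 rose and 0 fell, and of the 129 separated downward, 6 fell and 3 rose. The 15 and the 6 are larger shares than those over all transcripts tested in both tissues, which was not tested further. Livers and kidneys come from the same rats, so a shared direction is no independent repeat. The labels do not match libraries to rats, and the test between tissues takes all libraries as independent. The shares were also not matched for level, and separated transcripts were rarest at low levels. The difference between the tissues was called for 1032 of 14933 transcripts (6.91%), for 81 of 140 separated upward and for 99 of 133 separated downward, and since these were chosen by their change in the liver, a larger share is no result about them. ENSRNOT00000015336 is scarce in the kidney, where its medians were 60.6 CPM in vehicle and 60.1 CPM in acetaminophen rats, and its effect in the liver exceeded that in the kidney by 1.71 on the log2 scale (edgeR adjusted p = 0.0042). ENSRNOT00000045162, at a median of 1617 CPM in vehicle kidneys, had 1555 CPM with acetaminophen, and the tissues differed by -0.74 (edgeR adjusted p = 3.5e-04). For ENSRNOT00000008535 the kidney medians were 2.07 and 4.74 CPM, and the tissues differed by -3.93 (edgeR adjusted p = 1.8e-06).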

How the data were processed

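For every library, a kallisto output table of 28420 transcripts, holding estimated counts and TPM, was deposited (kallisto 0.42.4 and build Rnor 6.0, per the submitters' processing notes). The deposited estimated counts are not normalized, per the file headers, while the TPM that the authors deposited carry a scaling to length and depth. Libraries were stranded and poly-A selected and read as single 75-base reads, per the labels' protocols, whose extraction text speaks of cultured cells although the tissue labels name liver. Reads shared by related transcripts are divided by kallisto's model: 24.6% of the estimates were not whole (tolerance 1e-06), and a change of a transcript can come from reads moving between related ones.

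After rounding of the estimated counts, the 32 liver libraries were fitted in 4 groups by edgeR 4.0.16 (R 4.3.3), with the default expression filter, TMM factors and the two-sided quasi-likelihood F test. Calls have an adjusted p under 0.05 (Benjamini-Hochberg over 14943 transcripts). A standard error is the size of a log2 change over the square root of its F. Kidney calls come from a separate fit of the 32 kidney libraries in 4 groups, made the same way. Differences between liver and kidney come from a fit of all 64 libraries in 8 groups, taken as independent. Each is adjusted over the transcripts tested in its own fit. Log2 CPM has a prior count of 2. The spread uses transcripts of at least 1 CPM. Library measures and the spread were compared by exact permutation tests. Among 56 pairs of libraries of a group, the lowest chi-square over degrees of freedom was 20.6, so none were taken as the same library. The scripts were tested on simulated data.

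None of the identifiers matched the reference table (0 of 28420), so the planned gene lists and cell type markers were not run and no sequences are shown. By the rule for that case, 2 transcripts per direction are named: among called and separated transcripts, the largest change of those of at least 1 CPM, and the highest mean CPM. The members, bins and lists were chosen with earlier results of these data known. Alternatives were other scalings, filters, tests (DESeq2 1.42.0, limma 3.58.1, also on log2(TPM + 1) and log2(TPM + 0.1)), covariates and libraries left out, the last with scaling and filter kept. Those on libraries 28 to 32 and on the TMM reference were chosen after seeing the data.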

Additional observations from a re-analysis of the deposited data

Results flagged for a closer look

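Of 28 groups of 8 livers examined for a liver far from the others, 8 had one. For independent groups chance flags about 1 in 20, but these 28 are related measures of the same 16 livers, so the count is no test. The library labelled vehicle replicate 6 was the one in 7 of these. It was lowest in transcripts with a count, 17211, and in the slope on transcript length, -0.13. It was highest in the share of the 10 most abundant transcripts, 28.3%, and in the distance to its group, 1.03. It was also highest in the number of transcripts outside the range of the other 7 vehicle livers, 7667 of the 12591 of at least 1 CPM. For the acetaminophen livers, the same number averaged over the sets of 7 vehicle livers was 3589 to 5775.

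Vehicle replicate 6 was also far from its group along the transcripts called at 10 h. Its mean log2 difference from the mean of the other 7 vehicle livers was 0.187 over the 1455 that rose and -0.434 over the 909 that fell, while the other vehicle livers, each set against the remaining 7, lay between -0.048 and 0.004 and between -0.034 and 0.156. Those means include vehicle replicate 6. With that liver left out of the mean, the other vehicle livers lay between -0.022 and 0.032 and between -0.098 and 0.096. On that mean the acetaminophen livers had 0.120 to 0.304 and -0.532 to -0.263. The 10 h calls were also taken without library 28, which has a steep slope on length too. Vehicle replicate 6 then had 0.0955 and -0.364, against 0.143 to 0.291 and -0.553 to -0.301 in acetaminophen livers. It thus lay below the treated range for the rises and inside it for the falls. The part of the slope on length in these values was not tested.

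Acetaminophen replicate 6 had the largest distance to its group among the treated livers, 0.867.

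The difference between the effects at 5 h and 10 h was called for ENSRNOT00000034670 (-4.45 on the log2 scale, later minus earlier), ENSRNOT00000008535 (1.46) and ENSRNOT00000045162 (0.87). That between liver and kidney at 5 h was called for ENSRNOT00000015336 (1.71, liver minus kidney), ENSRNOT00000008535 (-3.93) and ENSRNOT00000045162 (-0.74). These transcripts were chosen by their liver values at 5 h, which enter both differences, so the tests lean toward a difference. The test between tissues also takes livers and kidneys of the same rats as independent.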

How the results depend on the processing

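The log2 changes of the 4 named transcripts kept their direction and call in all 120 alternative values, but that of ENSRNOT00000034670, 5.55, was 0.82 on log2(TPM + 1) and 2.38 on log2(TPM + 0.1). No paired analysis was possible because the labels give the groups no shared replicate numbers and do not match libraries to rats. The count of rises, 1102, became 575 on library totals, 640 with the 16 liver 5 h libraries alone, 717 without libraries 65 to 68, 1764 with libraries 28 to 32 as a term, and 361 and 328 by limma on log2(TPM + 1) and log2(TPM + 0.1). The count of falls, 977, became 620 with the 16 libraries, 1482 with that term, and 2615 and 2520 on TPM, which carries no correction for composition and shifted the median log2 change to -0.11 and -0.16. Rises were 1102 of 2079 calls here, 31.5% of calls on library totals and 12.1% and 11.5% on TPM. Transcripts separated upward, 141, became 75 on library totals, 212 without libraries 65 to 68, 438 without libraries 28, 29, 30 and 32, and 37 on TPM; those separated downward, 133, became 423 without those 4 and 374 on TPM. The 829 differences between times became 1426 with the term. Leaving out each 5 h liver gave 799 to 1132 rises, 780 to 1059 falls, 147 to 206 and 137 to 248 separated, 647 to 930 differences between times, and a difference in spread of 0.025 to 0.118, past the threshold without vehicle replicate 6 alone. The uncalled difference of ENSRNOT00000015336 between times, -0.02, turned to 0.092 without libraries 65 to 68 and 0.011 with the term, and ranged from -0.13 to 0.12 over livers left out. Apart from the alternatives' own construction, the cause of these shifts was not tested. Depth limits transcripts under 1 CPM, whose median standard error was 0.43.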
